A study of Mus musculus with 2 samples.

Results

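Cd27 Emb NK cells are tumor-infiltrating natural killer (NK) cells that carried RNA of the immature-stage receptor gene Cd27 and of Emb, and none of Klrg1, Cx3cr1 and S1pr5, 3 genes of later stages. UMIs (unique molecular identifiers) each count 1 captured transcript, and a barcode was kept as a cell if it had 500 genes or more and no more than 10% of its UMIs from mitochondrial genes. A member needed at least 1 UMI of Cd27 and 1 of Emb, 0 UMIs of Klrg1, Cx3cr1 and S1pr5, fewer than 2 UMIs of Cd3d and Cd3e together, 0 of Tmem176a and Tmem176b, and fewer than 3 of the 4 early response genes Nr4a1, Nfkbid, Nfkbiz and Csrnp1 detected. In all, 602 of 6622 kept cells were members, 219 of 3067 in the KO library and 383 of 3555 in the WT library.

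The KO library came from mice without Hif1a, a subunit of the hypoxia-inducible transcription factor, in their NK cells. The WT library came from wild-type mice. In both genotypes RMA-S lymphoma cells, which carry little surface MHC class I, had been placed under the skin 2 weeks earlier, and CD3ε-negative NK1.1-positive cells were sorted from the tumors and made into 10x Chromium libraries, which read transcripts at their 3′ ends. The labels name neither the Cre driver or allele behind the deletion nor the age, sex or number of the mice. Each genotype has 1 library, so there is no test, and every interval below is a 95% interval of counting error alone. A difference between the libraries can therefore not be told apart from one between mice, tumors or preparations, and fewer cells of a kind cannot be told apart from less RNA per cell.

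NK cells develop through stages that are followed by CD27 and CD11b (encoded by Itgam). CD27 marks the earlier cells, which still divide well and make cytokines, while CD11b, KLRG1, CX3CR1 and S1PR5 mark later cells with more granzyme and perforin. The transcription factors TCF-1 (Tcf7) and MYB act in early lymphoid cells, and ZEB2 and T-bet (Tbx21) drive late maturation. Embigin, the product of Emb, is a membrane glycoprotein that accompanies monocarboxylate transporters. On mm10 Cd27 lies on chromosome 6 from 125232622 to 125237010 and Emb on chromosome 13 from 117208536 to 117274415 (GENCODE M21).

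The tables held 13407906 UMIs over 3110 KO barcodes and 19553440 UMIs over 3574 WT barcodes, and 19 barcode sequences occurred in both. KO members had a median of 4206 UMIs and 1634 genes, and WT members 5176 UMIs and 1758 genes. They were deeper than the other NK cells, meaning all non-members that met the Cd3 and Tmem176 conditions, which had medians of 3662.5 UMIs in KO and 4291 in WT. Since the rule asks for detected UMIs, both the members' share and their makeup depend on depth. The members' summed UMIs, 1017657 in KO and 2142785 in WT, gave the scaled counts (CPM, UMIs per 1000000 UMIs of that kind of cell) used below.

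Members made up 7.14% of kept KO cells (interval 6.25 to 8.11) and 10.8% of kept WT cells (9.77 to 11.8). That order held only with the limit on the 4 early response genes. Before it was applied, 468 KO cells (15.3%) and 441 WT cells (12.4%) met every other condition. Of these, 46.8% in KO and 86.8% in WT had fewer than 3 of the 4 genes, so the limit removed 249 KO cells but only 58 WT cells. Thinning every cell to 2500 UMIs before applying the rule gave 7.44% in KO (6.47 to 8.5, 197 of 2649 cells) and 7.68% in WT (6.82 to 8.62, 266 of 3463 cells). Thinned and without the limit, the shares were 11.4% in KO and 8.03% in WT. No order of the genotypes in the abundance of these cells thus held under both settings.

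**Figure D1:**
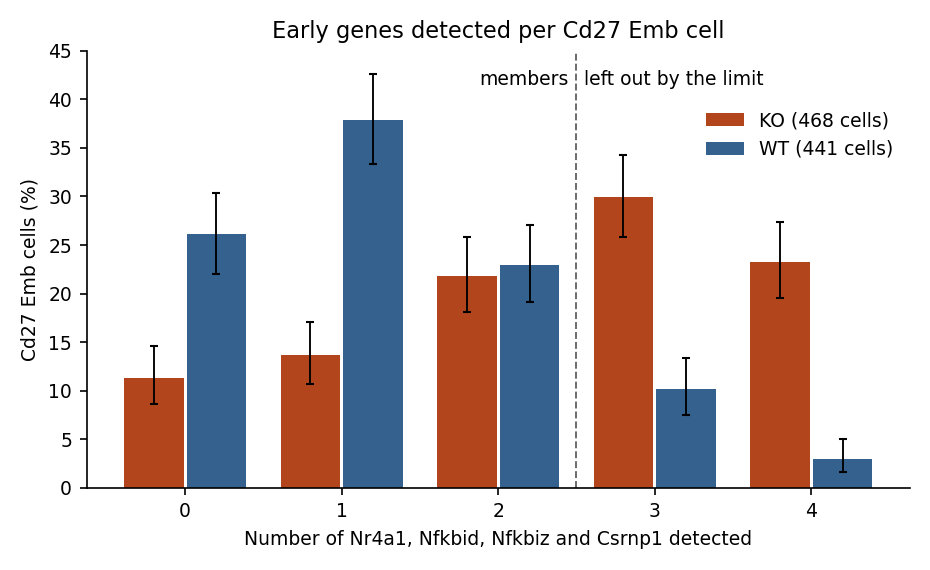
Share of the Cd27 Emb cells (y axis, percent of 468 KO and 441 WT cells that met all conditions but the last) with 0 to 4 of Nr4a1, Nfkbid, Nfkbiz and Csrnp1 detected (x axis). Bars are KO (left) and WT (right) with exact binomial intervals, and the dashed line is the limit of the rule; KO cells are most often at 3 genes (29.9%) and WT cells at 1 (37.9%).

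Early markers were found on both sides of that limit. KO cells with 2 of the 4 genes had 128 CPM of Tcf7 and 138 CPM of Cd28, and KO cells with 3 of them had 121 CPM of Tcf7 and 176 CPM of Cd28. WT cells with 2 had 129 CPM of Tcf7 and 132 CPM of Cd28, and WT cells with 3 had 80.3 CPM of Tcf7 and 125 CPM of Cd28. The level of Ifng, encoding interferon gamma, was higher the more early genes were detected. It stood at 127, 145, 289, 555 and 602 CPM in KO cells with 0, 1, 2, 3 and 4 early genes and at 159, 243, 294, 404 and 444 CPM in WT cells. The median depth went with it too, 3840 to 5088 UMIs in KO and 4401 to 7702 UMIs in WT, and its part in this was not tested.

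The values that chose the members are given as a description. Cd27, a TNF-receptor-family co-stimulatory receptor, stood at 401 CPM in KO members and 312 CPM in WT members, against 113 CPM in other KO NK cells and 75.3 CPM in other WT NK cells. Emb stood at 794 and 661 CPM in KO and WT members, against 307 and 169 CPM in other KO and WT NK cells. Many members only just met the rule, since 124 of 219 KO members and 212 of 383 WT members held a single Cd27 UMI. A single Emb UMI was held by 59 KO and 105 WT members, and the highest counts per cell were 9 Cd27 and 17 Emb UMIs in KO and 9 and 21 in WT.

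Cells with exactly 1 UMI of each gene, 38 in KO and 69 in WT, had less Tcf7 and more Gzmb than the rest. Their Tcf7 level was 65.7 CPM in KO and 67.4 CPM in WT, whereas members with 2 or more UMIs of either gene had 140 CPM in KO and 155 CPM in WT. Their Gzmb level was 2038 CPM in KO and 1637 CPM in WT, whereas the other members had 761 CPM in KO and 852 CPM in WT. Their median depth was 3824 UMIs in KO and 3819 in WT, against 4302 and 5421.5 UMIs in the other KO and WT members.

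The name given to these cells rests on 4 further markers that the rule did not use, and 3 of the 4 were higher in members than in other NK cells in both libraries. Tcf7 reached 129 CPM in KO members and 143 CPM in WT members, against 63.3 CPM in other KO cells and 44.7 CPM in other WT cells. The log2 ratio, here always of CPM with 1 CPM added to both sides, was 1.01 in KO (0.74 to 1.30) and 1.66 in WT (1.48 to 1.88). Both members' levels thus lay above both levels of the other cells.

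Cd28, the classic co-stimulatory receptor of T cells, had 153 CPM in KO members and 133 CPM in WT members, against 112 CPM in other KO cells and 72.9 CPM in other WT cells. Its log2 ratios were 0.45 in KO (0.20 to 0.70) and 0.85 in WT (0.67 to 1.05). Myb had 63.9 CPM in KO members and 35.9 CPM in WT members, against 27.7 and 21.5 CPM in other KO and WT cells, with log2 ratios of 1.18 in KO (0.80 to 1.60) and 0.71 in WT (0.36 to 1.10). The WT ratio of Myb was 0.51 in thinned cells.

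Ctla4, an inhibitory receptor that binds the ligands of CD28, did not follow the other 3 in the summed counts. Its level was 13.8 CPM in KO members (14 UMIs in 11 cells) and 26.6 CPM in WT members (57 UMIs in 31 cells), against 26.6 CPM in other KO cells and 26.6 CPM in other WT cells. The log2 ratio was -0.91 in KO and -0.0014 in WT. With the rule applied to thinned counts, which also changes the cells chosen, the ratio of Ctla4 was 0.21 in KO and 0.76 in WT. All 4 markers were then higher in members. Without the early gene limit the ratio of Ctla4 was 0.049 in KO and -0.081 in WT. Counterparts, which meet all other conditions but lack Cd27 or Emb, had 9.55 CPM of Ctla4 in KO (5.75 to 14.9) and 15.5 CPM in WT (11.8 to 20). The members' intervals were 7.52 to 23.1 CPM in KO and 20.1 to 34.5 CPM in WT. Members thus had more Ctla4 than counterparts in WT, while in KO the intervals overlapped. Klrg1-positive cells had 49.0 CPM in KO and 42.4 CPM in WT. As the direction of Ctla4 depends on the cells chosen and compared, the cells are called here by their rule, Cd27 Emb cells.

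**Figure D2:**
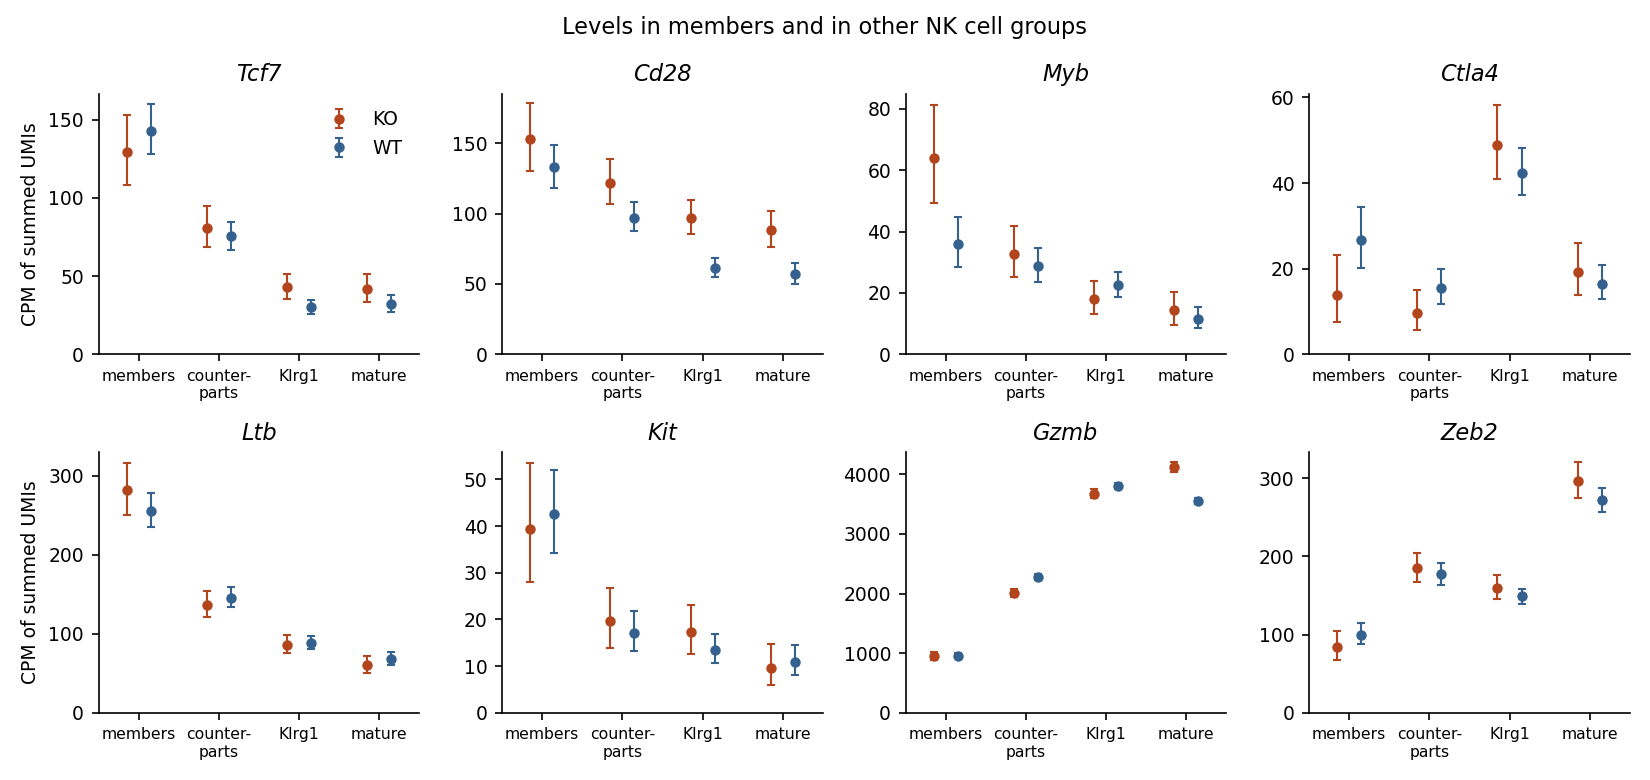
Level of 8 genes (y axis, CPM of summed UMIs, starting at 0) in members, in counterparts, in Klrg1 cells without Cx3cr1 and S1pr5, and in mature cells with Cx3cr1 or S1pr5. Points are KO (left) and WT (right) with 95% Poisson intervals; Tcf7, Ltb and Kit are highest and Gzmb and Zeb2 lowest in members in both libraries, while Ctla4 is highest in Klrg1 cells.

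Because depth alone can raise detection, shares of cells with a UMI were compared after thinning each cell to 2500 UMIs, which left out 11 KO and 6 WT members as too shallow. For such shares the members were those chosen before thinning. Tcf7 was detected in 25% of KO and 32.1% of WT members, against 13.2% and 9.4% of other KO and WT cells. In mature cells, which should express little of it, the shares were 8.51% in KO and 6.27% in WT. Myb was detected in 14.4% of KO and 6.90% of WT members, against 2.34% and 2.51% of mature KO and WT cells. For Cd28 the members' shares were 26.0% in KO and 23.9% in WT, against 16.4% and 11.3% of mature KO and WT cells. All of these shares of members lay above those of mature cells. Unthinned, Tcf7 was detected in 37.9% of KO and 47.8% of WT members, against 14.0% and 12.2% of mature KO and WT cells, whose median depths were 3782 and 4548.5 UMIs.

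At least 1 of Cd28, Tcf7 and Myb was found in 51.4% of thinned KO members (44.4 to 58.4) and 50.7% of thinned WT members (45.5 to 55.8), against 24.5% of mature KO and 17.1% of mature WT cells. Cells more like the members had higher shares than mature cells. The share was 37.1% in KO and 33.3% in WT counterparts. In Cd27 Emb cells that only the early gene limit left out it was 50.4% in KO (43.9 to 56.9) and 34.5% in WT (22.5 to 48.1). At 2500 UMIs a gene of this level goes undetected in many cells that express it, so these shares do not say which members carry the markers.

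Members kept the general NK program at a somewhat lower level. All 12 genes of the NK identity list passed the minimum of 50 UMIs, and the list's median log2 ratio to other NK cells was -0.26 in KO and -0.32 in WT, beside medians over all 5961 genes measured of 0.022 in KO and -0.009 in WT. Nkg7, a granule protein, had 2568 CPM in KO and 2736 CPM in WT members, against 3704 and 4211 CPM in other KO and WT cells. Ncr1, encoding the activating receptor NKp46, had 305 CPM in KO and 308 CPM in WT members, against 489 and 455 CPM in other KO and WT cells. Eomes, the transcription factor that separates NK cells from other innate lymphoid cells, had 271 CPM in KO and 223 CPM in WT members, against 239 and 182 CPM in other KO and WT cells.

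Several marker genes of other cell types were absent from members, but the sums over whole lists were not always lower than in other NK cells. Cd4, Cd8a and Cd8b1 had 0 UMIs in members of either library, which allows up to 2.95 CPM in KO and 1.4 CPM in WT (3 UMIs per library), and so did the ILC genes Il23r, Il13 and Il5. The B cell genes Cd79a, Ms4a1 and Pax5 and the macrophage genes Adgre1 and C1qa were also at 0. Sums over each list leave out genes of the rule, namely Cd3d and Cd3e (T cells) and Tmem176a and Tmem176b (helper-like ILCs). T cell markers had 206 CPM in KO and 186 CPM in WT members, against 222 and 234 CPM in other KO and WT cells, and came mostly from Cd247, which NK cells use. A Cd3d or Cd3e UMI was held by 17 of 219 KO members (7.76%) and 51 of 383 WT members (13.3%). Myeloid markers had 196 CPM in KO and 293 CPM in WT members, against 294 and 254 CPM in other KO and WT cells. Helper-like ILC markers had 151 CPM in KO and 107 CPM in WT members, against 105 and 69.5 CPM in other KO and WT cells, and this list includes Il7r, described below. All 3 genes measured of this list were higher in members in both libraries, with median log2 ratios of 0.22 in KO and 0.58 in WT. Basophil and mast cell markers had 3.93 CPM in KO and 3.73 CPM in WT members, against 5.29 and 19.3 CPM in other KO and WT cells.

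Across all genes, 13 were at least 2-fold higher in members than in other NK cells in both libraries (0.218% of 5961 genes measured) and 28 were at least 2-fold lower in both (0.47%). The 13 genes of the rule are left out of all such counts. With CPM taken over UMIs outside mitochondrial and ribosomal protein genes the split was 21 higher and 23 lower. Ribosomal protein genes held 29.2% of UMIs in KO and 31.0% in WT members, against 24.6% and 26.4% in other KO and WT cells.

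The higher genes included receptors and regulators of early lymphoid stages. Ltb, which encodes lymphotoxin beta, had 282 CPM in KO and 256 CPM in WT members, against 98.6 and 101 CPM in other KO and WT cells, with log2 ratios of 1.51 in KO (1.32 to 1.71) and 1.33 in WT (1.2 to 1.48). Kit, the receptor of stem cell factor, had 39.3 CPM in KO and 42.5 CPM in WT members, against 16.6 and 14.4 CPM in other KO and WT cells. Ikzf2, which encodes the Ikaros-family factor Helios, had 141 CPM in KO and 82.6 CPM in WT members, against 69.5 and 40.8 CPM in other KO and WT cells. For Ltb and Kit both members' levels lay above both levels of the other cells, as they did for Ikzf2. The Cd27 Emb cells that only the early gene limit left out count among the other cells. They had 135 CPM of Ikzf2 in KO and 160 CPM in WT, so a high Ikzf2 level was not particular to members. Their Kit level was 26.0 CPM in KO and 38.9 CPM in WT, and their Ltb level 175 CPM in KO and 195 CPM in WT.

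Slamf6, a SLAM-family receptor of immature and memory-like lymphocytes, had 39.3 CPM in KO and 22.9 CPM in WT members, against 13.2 and 10.5 CPM in other KO and WT cells. Hvcn1, a voltage-gated proton channel, had log2 ratios of 1.28 in KO and 1.48 in WT, but 0.33 in KO without cells with 3 or more S and G2M genes. Here and below, leaving out such cells removed most members, 145 of 219 in KO and 293 of 383 in WT. H2-Oa, a chaperone of MHC class II peptide loading, had ratios of 1.21 in KO and 1.57 in WT. Tnfrsf26, a TNF-receptor-family member, had 1.15 in KO and 1.23 in WT, and Kbtbd11 had 1.28 in KO, 0.45 when thinned, and 1.61 in WT.

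Among homing receptors, 4 of 16 measured genes were at least 1.5-fold higher in members in both libraries and 2 lower, beside 1.02% and 1.46% of all genes. Cxcr3, the receptor of interferon-induced chemokines, had 64.9 CPM in KO and 61.1 CPM in WT members, against 29.5 and 24.6 CPM in other KO and WT cells. Ccr7, the receptor that guides cells to lymph nodes, had 90.4 CPM in KO and 68.6 CPM in WT members, against 39.6 and 20.1 CPM in other KO and WT cells. S1pr1, a receptor of lymphocyte egress that is also on the mature NK list, had 40.3 CPM in KO and 22.9 CPM in WT members, against 18.3 and 12.9 CPM in other KO and WT cells. Itgam, encoding CD11b, was among the lower ones, with 52.1 CPM in KO and 40.6 CPM in WT members, against 131 and 125 CPM in other KO and WT cells.

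Il7r and Ccr7 came from small numbers of cells. Il7r, the interleukin-7 receptor of thymic NK cells and many ILCs, had 47.2 CPM in KO and 28.0 CPM in WT members, against 10.0 and 7.29 CPM in other KO and WT cells. It was detected in 19 KO and 29 WT members, and the 10 cells with most Il7r UMIs held 79.2% of them in KO and 58.3% in WT. For Ccr7 the 10 top cells held 68.5% in KO and 59.2% in WT. Without the early gene limit the KO log2 ratio of Ccr7 was 2.12, against 1.17 with it. In WT it was 1.88 without the limit and 1.72 with it. The KO ratio of Il7r was 1.42 without the limit and 2.13 with it. A ratio with so few carriers describes those cells more than the members at large, and its counting interval is too narrow. With cells with an Il7r UMI left out, 12 genes were 2-fold higher and 27 lower in both libraries.

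**Figure D3:**
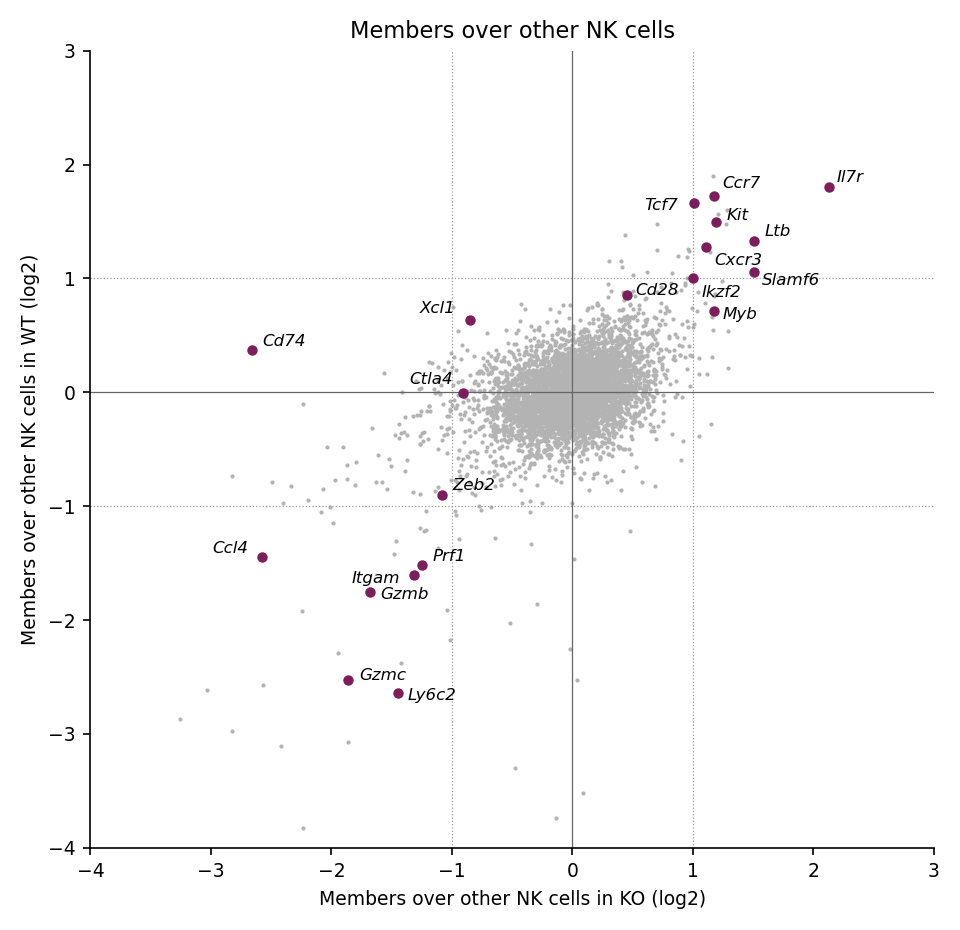
Log2 ratio of CPM (1 CPM added) in members over other NK cells, in the KO library (x axis) and the WT library (y axis), for the 5961 genes measured outside the rule. Each point is a gene and dotted lines mark 2-fold; Tcf7, Ltb and Kit lie at the upper right, Gzmb, Prf1 and Itgam at the lower left, and Cd74 and Xcl1 are lower in KO members and higher in WT members.

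The lower genes included those of killing, chemokine release and late maturation. Of 16 cytotoxic effector genes measured, 9 were at least 1.5-fold lower in members in both libraries and 0 were higher, with list medians of -0.82 in KO and -1.37 in WT. By that measure 1.46% of all genes were lower and 1.02% higher, the background of each list count against other NK cells below. The WT median was -0.72 when thinned and -0.72 without cells with 3 or more S and G2M genes, and the KO median was -0.30 without the 3% of cells with most UMIs. Against counterparts 3 of 15 genes were lower and 0 higher, with medians of -0.19 in KO and -0.08 in WT. Gzmb, granzyme B, had 952 CPM in KO and 960 CPM in WT members, against 3056 and 3245 CPM in other KO and WT cells, with log2 ratios of -1.68 in KO (-1.78 to -1.59) and -1.76 in WT (-1.82 to -1.69). Prf1, perforin, had 91.4 CPM in KO and 112 CPM in WT members, against 218 and 324 CPM in other KO and WT cells. Gzma, granzyme A, had 9179 CPM in KO and 5738 CPM in WT members, against 14314 and 13919 CPM in other KO and WT cells.

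Gzmc, Gzmd, Gzme, Gzmf and Gzmg were also among the 12 lowest genes, but these near-identical granzymes can share reads, and under some settings their ratios turned sign or, for Gzmf, came under 1.5-fold. Gzmc had 59.0 CPM in KO and 175 CPM in WT members, against 216 and 1018 CPM in other KO and WT cells, while Klrg1 cells had 663 CPM in KO and 2128 CPM in WT. Its WT ratio was 0.052 without cells with 3 or more S and G2M genes, against -2.53 with them. Without the 3% of cells with most UMIs the KO ratios were 0.31 for Gzmd (-2.83 with them), 0.51 for Gzme (-2.23), -0.27 for Gzmf (-2.41) and 0.20 for Gzmg (-3.26). Gzmg in KO was 0.64 without cells with 3 or more S and G2M genes and Gzme in KO 0.014 when thinned.

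Ifitm1 and Ifitm2, interferon-induced membrane proteins, Gpx8, a glutathione peroxidase, and Ccl9, a chemokine, were also among the 12. Thinned, Ifitm2 had ratios of 0.43 in KO and -0.39 in WT, against -1.94 and -2.29 unthinned. The KO ratio of Ifitm1 was -2.57 with 1 CPM added to both sides, -5.65 with 0.1 CPM and -0.58 with 10 CPM, so its size depends on the CPM added. Without cells with 3 or more S and G2M genes the WT ratios were -0.62 for Ifitm1 (-2.57 with them) and -0.52 for Ifitm2. Without the 3% of cells with most UMIs they were -0.90 and -0.48. The WT ratio of Ifitm1 stayed at -2.46 thinned and -2.61 without the early gene limit. Ccl9 had ratios of -1.92 or lower in both libraries under every alternative run on it. Ccl9 had 10.8 CPM in KO and 9.80 CPM in WT members, against 95.8 and 65.0 CPM in other KO and WT cells.

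Of 14 genes of the mature NK list, 8 were at least 1.5-fold lower in members in both libraries and S1pr1 was higher, with list medians of -0.66 in KO and -0.95 in WT. Zeb2 had 84.5 CPM in KO and 100 CPM in WT members, against 180 and 188 CPM in other KO and WT cells. Ly6c2, a surface antigen gained late, had 80.6 CPM in KO and 23.3 CPM in WT members, against 222 and 151 CPM in other KO and WT cells. S100a6, a calcium-binding protein, had 398 CPM in KO and 619 CPM in WT members, against 778 and 1308 CPM in other KO and WT cells. The immature NK list went the other way, with 8 of 17 genes at least 1.5-fold higher in both libraries, 0 lower and medians of 0.45 in KO and 0.72 in WT. Both lists were compiled with earlier results of these libraries known.

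Of 9 cytokine and chemokine genes measured, 4 were at least 1.5-fold lower in both libraries and Ltb was higher. Ccl4, a chemokine that draws other immune cells, had 718 CPM in KO and 693 CPM in WT members, against 4284 and 1892 CPM in other KO and WT cells. Ccl3 had 453 CPM in KO and 690 CPM in WT members, against 2074 and 1333 CPM in other KO and WT cells. Ccl5 had 13814 CPM in KO and 15075 CPM in WT members, against 23386 and 30770 CPM in other KO and WT cells. The 249 KO and 58 WT cells that the early gene limit left out count among the other NK cells, and they had 1960 and 968 CPM of Ccl4 in KO and WT. The part of the limit in the wider KO gap of Ccl3 and Ccl4 was not tested.

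The Ly49 and NKG2 receptor list, whose genes encode receptors for MHC class I and related ligands, had 3 of 18 genes at least 1.5-fold lower in both libraries and 0 higher. Klra9 had 249 CPM in KO and 330 CPM in WT members, against 549 and 602 CPM in other KO and WT cells. Klra3 had 135 CPM in KO and 128 CPM in WT members, against 263 and 222 CPM in other KO and WT cells. The Klra genes are close relatives, so reads may have been split among them. Metabolic lists showed little, with 0 of 15 glycolysis genes and 0 of 20 nuclear oxidative phosphorylation genes past 1.5-fold in both libraries.

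Counterparts that met every other condition but lacked Cd27 or Emb, 608 in KO and 918 in WT, differed from members, by the rule, in these genes only. Of 5984 genes measured, 9 were at least 2-fold higher in members in both libraries (0.15%) and 9 were lower (0.15%). Outside mitochondrial and ribosomal protein genes the split was 13 and 7. The counterparts had fewer UMIs, with medians of 3011 in KO and 3609.5 in WT. Of the immature NK list 4 of 17 genes were at least 1.5-fold higher in members than in counterparts in both libraries and 0 lower, beside 0.585% and 0.836% of all genes. Of the mature NK list 0 of 14 were higher and 6 lower. Levels lay between those of members and of mature cells for Tcf7, with 81.0 CPM in KO and 75.3 CPM in WT counterparts, and for Ltb, with 137 and 146 CPM in KO and WT counterparts. Gzmb had 2005 CPM in KO and 2275 CPM in WT counterparts. Zeb2 in counterparts was close to its level in other NK cells, with 185 CPM in KO and 177 CPM in WT counterparts.

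Mature cells, with a UMI of Cx3cr1 or S1pr5, numbered 515 in KO and 812 in WT. Of 5978 genes measured, 45 were at least 2-fold higher in members in both libraries (0.753%) and 47 were lower (0.786%). Ribosomal protein genes held 22.4% and 24.2% of UMIs in mature KO and WT cells. Scaling to UMIs outside mitochondrial and ribosomal protein genes moved the median of all genes up by 0.141 in both libraries and the split to 65 and 27. At 1.5-fold 9 of 17 immature NK genes were higher and 0 lower, and 0 of 15 mature NK genes were higher and 12 lower, beside 2.51% and 2.63% of all genes. Tcf7 had 41.8 CPM in KO and 32.3 CPM in WT mature cells, giving log2 ratios of 1.60 in KO and 2.11 in WT. Myb had 14.3 and 11.6 CPM in KO and WT mature cells, giving 2.09 in KO and 1.55 in WT. Zeb2 had 297 and 272 CPM in KO and WT mature cells, giving -1.80 in KO and -1.43 in WT.

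In all 3 comparisons the genes higher in both libraries were Ccr7, H2-Oa, Hvcn1, Ikzf2, Il7r, Kbtbd11 and Slamf6, which is 7 of the 13 counted against other NK cells and 7 of the 45 counted against mature cells. The genes lower in all 3 comparisons were Ccl4, Ccl9, Cfap46, Cmklr1, Entpd1, Gm10522, Gzmb, Itgam and Serpinb9b, 9 of the 28 counted against other NK cells and 9 of the 47 counted against mature cells. Cmklr1 encodes the chemerin receptor and Entpd1 the ectonucleotidase CD39. These comparisons use the same members and overlapping reference cells, so the shared genes were not independent findings. Mature cells were picked by Cx3cr1 and S1pr5, which members had to lack.

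Between genotypes, members of the KO library and of the WT library differed by at least 2-fold in 57 genes higher in KO (0.998% of 5713 measured) and 52 lower in KO (0.91%). The median over all genes was 0.051. In other NK cells 90 of these genes were higher in KO (1.58%) and 31 lower (0.543%). With the limit on the 4 early genes left out, 115 were higher and 50 lower in KO. Scaling outside mitochondrial and ribosomal protein genes gave 52 and 57. Hif1a RNA had 71.7 CPM in KO members and 62.1 CPM in WT members, a log2 ratio of 0.21 (-0.22 to 0.63), against 59.6 and 56.5 CPM in other KO and WT cells. Reads from the 3′ end need not cover the deleted stretch, so these counts do not check the deletion.

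**Figure D4:**
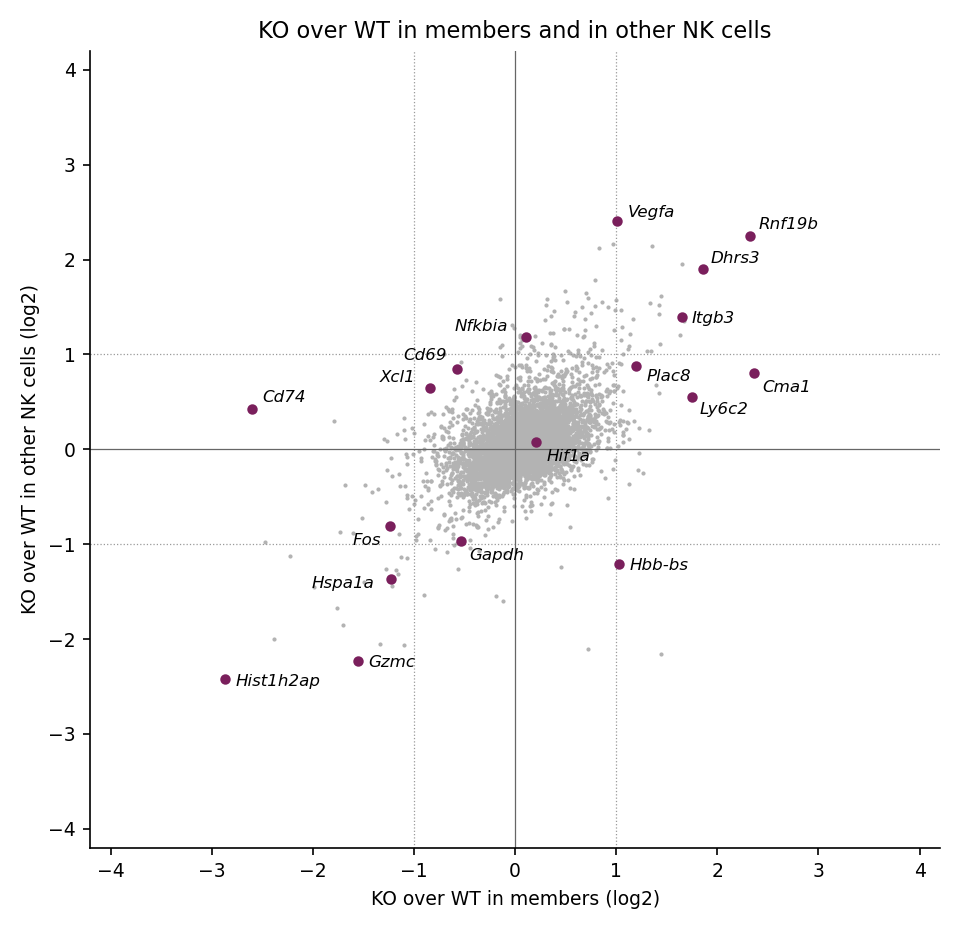
Log2 ratio of CPM (1 CPM added) in KO over WT, in members (x axis) and in other NK cells (y axis), for the 5713 genes with at least 50 UMIs over the members of both libraries, outside the rule. Each point is a gene and dotted lines mark 2-fold; Rnf19b, Dhrs3 and Itgb3 are higher in KO in both kinds of cell, while Cd69, Xcl1 and Cd74 are lower in KO members and higher in other KO cells.

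The 12 genes named as highest in KO over WT members were also higher in KO among other NK cells. Rnf19b, an E3 ubiquitin ligase of the cytolytic granule, had 71.7 CPM in KO members and 13.5 CPM in WT members, a log2 ratio of 2.32 (1.77 to 3.08), beside 2.25 in other NK cells. Dhrs3, a retinaldehyde reductase, had 192 CPM in KO and 52.3 CPM in WT members, a ratio of 1.85 (1.53 to 2.22), beside 1.90 in other NK cells. Itgb3, integrin beta 3, had 370 CPM in KO and 118 CPM in WT members, a ratio of 1.65 (1.42 to 1.89), beside 1.40 in other NK cells. Itgb3 was also higher in members than in other cells of the same library, by 0.99 in KO and 0.74 in WT.

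Cma1 and Ly6c2 had a wider gap in members. Cma1, a chymase gene best known from mast cells, had 386 CPM in KO members and 74.2 CPM in WT members, a log2 ratio of 2.36 (2.11 to 2.65), beside 0.80 in other NK cells. It was spread over 104 KO and 100 WT members, and the mast cell genes Fcer1a, Ms4a2 and Gata2 had 0 UMIs in members. Ly6c2 had 80.6 CPM in KO and 23.3 CPM in WT members, a ratio of 1.75 (1.26 to 2.33), beside 0.55 in other NK cells, but 10 cells held 75.6% of its UMIs in KO. Among members with 2 or more UMIs of Cd27 or Emb the Ly6c2 ratio was 0.63. Both genes belong to the mature NK list, of which 4 of 14 genes were at least 1.5-fold higher in KO members and 1 lower, beside 7.07% and 3.68% of all genes. In other NK cells 5.51% and 1.84% of these genes were past 1.5-fold.

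Plac8, a small cysteine-rich protein, was high in members and higher in KO. It had 1072 CPM in KO members and 468 CPM in WT members, against 523 and 284 CPM in other KO and WT cells. The KO to WT log2 ratio was 1.19 in members (1.07 to 1.32) and 0.88 in other NK cells. Trmt61a, a tRNA methyltransferase, had 266 CPM in KO and 85.4 CPM in WT members, and Pim3, a survival kinase, had 94.3 and 36.9 CPM in KO and WT members. Klhdc2, Abcb1b, Slx1b and Trf completed the 12 genes, with log2 ratios of 1.43, 1.35, 1.44 and 1.16, beside 1.10, 1.04, 1.61 and 1.37 in other NK cells. The ratio of Trf was 0.076 without cells with 3 or more S and G2M genes.

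Of 10 heat shock genes 2 were at least 1.5-fold lower in KO members and 0 higher, with a median of -0.32, beside -0.34 in other NK cells. Among all genes 3.68% were lower and 7.07% higher in KO members, the background of each list count in KO members here and below. Of 14 S and G2M genes 2 were lower and 0 higher, with a median of -0.29, beside -0.52 in other NK cells. Among the 12 genes named as lowest in KO members, Hspa1a, an inducible heat shock protein, had 392 CPM in KO and 920 CPM in WT members, a log2 ratio of -1.23 (-1.39 to -1.07), beside -1.37 in other NK cells. It shares sequence with Hspa1b, which had 97.3 CPM in KO and 104 CPM in WT members. Hist1h2ap, a replication-dependent histone, had 14.7 CPM in KO and 114 CPM in WT members, and 10 cells held 76.2% of its WT UMIs. Its ratio of -2.87 was -0.85 without cells with 3 or more S and G2M genes. Fos, an AP-1 subunit, had 322 CPM in KO and 762 CPM in WT members, a ratio of -1.24 (-1.42 to -1.07), beside -0.81 in other NK cells. Ppib, an endoplasmic reticulum cyclophilin, had 182 CPM in KO and 412 CPM in WT members, and Mt1, a metallothionein, had 18.7 and 48.5 CPM in KO and WT members. Rgs16, Fam96a, Cenpq, Eno1b and Rasgrp2 had log2 ratios of -1.51, -1.5, -1.30, -1.27 and -1.27, beside -0.72, -1.40, 0.10, -1.27 and -0.22 in other NK cells. The ratio of Cenpq was -0.28 when thinned and -0.12 without the early gene limit. Eno1b is a near copy of Eno1, so its count is uncertain.

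Cd74, the invariant chain of MHC class II, had 9.83 CPM in KO members and 64.9 CPM in WT members, a log2 ratio of -2.61, beside 0.43 in other NK cells. A handful of WT members carried it, as 10 cells held 79.9% of its UMIs. The class II genes H2-Aa and H2-Ab1 were likewise lower in KO members, at 4.91 and 3.93 CPM in KO members and 17.7 and 19.1 CPM in WT members. The B cell list, in which Cd74 was the one gene past the minimum count, summed to 12.8 CPM in KO and 66.7 CPM in WT members, against 79.0 and 51.8 CPM in other KO and WT cells. Lyz2, a macrophage gene, had 5 UMIs in KO and 3 in WT members, and the part of other cells or free RNA in the Cd74 difference was not tested.

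Of 15 glycolysis genes, textbook targets of HIF, 2 (Pgk1 and Tpi1) were at least 1.5-fold lower in KO members and 0 higher, beside 3.68% and 7.07% of all genes. The list's median was -0.33, beside 6 lower and a median of -0.57 in other NK cells. Gapdh, which did not pass 1.5-fold in members, had 596 CPM in KO members and 868 CPM in WT members, a log2 ratio of -0.54 (-0.68 to -0.41), beside -0.97 in other NK cells. Pgk1 had 69.8 CPM in KO and 112 CPM in WT members, a ratio of -0.67 (-1.08 to -0.29), beside -1.08 in other NK cells. Tpi1 had 178 CPM in KO and 272 CPM in WT members. Among 13 other HIF targets 3 were at least 1.5-fold lower in KO members and 1 was higher, beside 1 lower and 1 higher in other NK cells. The higher one in members was Vegfa, an angiogenic factor, with 130 CPM in KO members and 63.9 CPM in WT members, against 320 and 59.5 CPM in other KO and WT cells.

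For the NF-kB, immediate early and cytokine lists the KO to WT medians lay nearer 0 in members than in other NK cells. The rule limits early genes, and its part in that was not tested. Without the limit the members' medians were 0.70 for NF-kB, 0.60 for immediate early and 0.14 for cytokine and chemokine genes. NF-kB genes, of which the 3 used by the rule are left out, had a median log2 ratio of 0.12 in members, with 3 of 18 at least 1.5-fold higher in KO, and 1.01 in other NK cells, with 14 higher. Immediate early genes had a median ratio of -0.015 in members and 0.68 in other NK cells, and the cytokine and chemokine list 0.051 in members and 0.65 in other NK cells. Nfkbia, the inhibitor that NF-kB itself induces, had 927 CPM in KO and 861 CPM in WT members, against 2491 and 1100 CPM in other KO and WT cells.

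Xcl1 and Cd69 showed opposite order in the 2 kinds of cell. Xcl1, a chemokine that attracts cross-presenting dendritic cells, had 428 CPM in KO members and 768 CPM in WT members, against 772 and 493 CPM in other KO and WT cells. Cd69, an early activation antigen, had 77.6 CPM in KO members and 116 CPM in WT members, against 209 and 115 CPM in other KO and WT cells. In the cells that only the limit had left out, Xcl1 had 739 CPM in KO and 1040 CPM in WT, and Cd69 had 170 CPM in KO and 151 CPM in WT. Xcl1 was thus lower in KO on both sides of the limit, and Cd69 was not.

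Of the markers, Tcf7 and Cd28 had KO to WT log2 ratios in members of -0.15 (-0.46 to 0.15) and 0.21 (-0.081 to 0.50), both with intervals that include 0. In other NK cells these ratios were 0.49 for Tcf7 and 0.61 for Cd28. Myb had a ratio of 0.81 (0.33 to 1.33) in members and 0.35 in other NK cells. Lag3, an inhibitory receptor, had 73.7 CPM in KO and 39.2 CPM in WT members, against 41.0 and 50.9 CPM in other KO and WT cells. Icos, a co-stimulatory receptor, had 46.2 CPM in KO and 27.1 CPM in WT members. Bcl2, which protects from apoptosis, had 539 CPM in KO and 356 CPM in WT members, a ratio of 0.60 (0.44 to 0.76), beside 0.48 in other NK cells.

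Cytokine receptor and TGF-beta genes past 1.5-fold were higher in KO members, beside 7.07% higher and 3.68% lower of all genes. Of 13 genes of interleukin-2 and interleukin-15 receptor signalling, 4 were at least 1.5-fold higher in KO members and 0 lower, with a median of 0.33, beside 4 higher and a median of 0.48 in other NK cells. Socs3, a feedback inhibitor of cytokine receptors, had 112 CPM in KO and 70.5 CPM in WT members. Of 11 TGF-beta response genes, 2 were higher and 0 lower in KO members, with a median of 0.31, beside 8 higher and 0.64 in other NK cells. Pmepa1, a feedback inhibitor of TGF-beta signalling, had 43.2 CPM in KO and 13.1 CPM in WT members, a ratio of 1.65 (1.01 to 2.46), beside 1.95 in other NK cells. Of 16 mTORC1 and MYC targets 0 were higher and 2 lower, with a median of -0.21, beside -0.25 in other NK cells.

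Other regulators had a wider KO to WT ratio in other NK cells. Stat4, the transducer of interleukin-12 signals, had 279 CPM in KO and 181 CPM in WT members, a ratio of 0.62 (0.40 to 0.85), beside 1.02 in other NK cells. Cxcr4, a homing receptor, had 146 CPM in KO and 90.5 CPM in WT members, a ratio of 0.69 (0.38 to 1.01), beside 1.37. Bcl2l11, which encodes the pro-apoptotic protein BIM, had 621 CPM in KO and 358 CPM in WT members, a ratio of 0.79 (0.64 to 0.95), beside 1.51. Phgdh, the entry enzyme of serine synthesis, was lower in KO, with 26.5 CPM in KO and 56.9 CPM in WT members, and so was Ddit4, an inhibitor of mTORC1 that HIF induces, with 25.5 CPM in KO and 57.9 CPM in WT members.

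**Figure D5:**
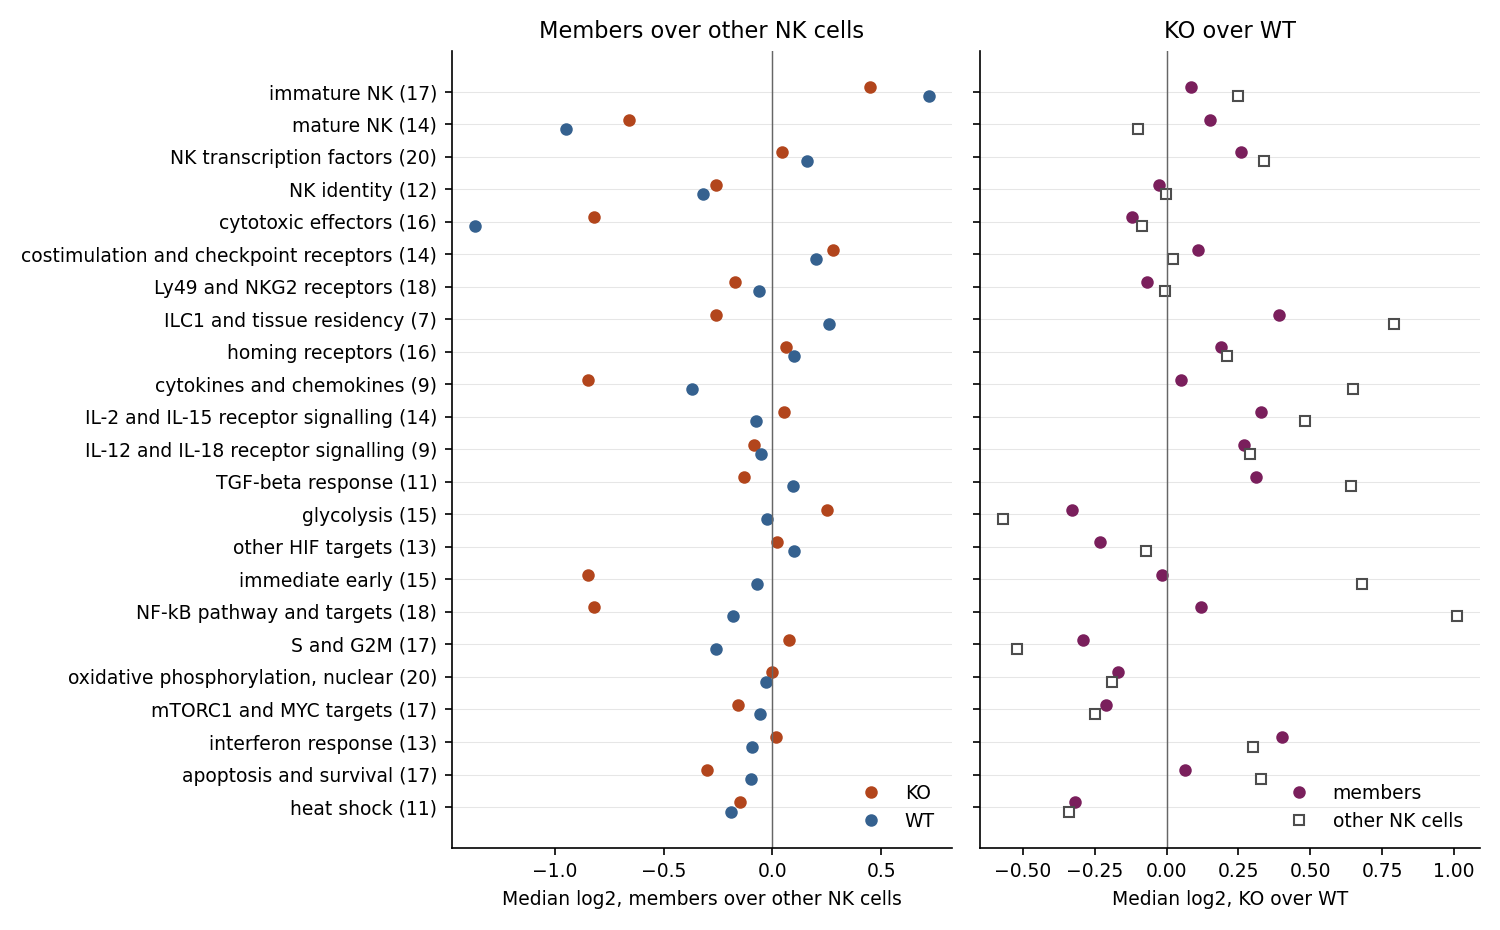
Median log2 ratio of the gene lists with at least 7 genes measured (number in brackets, for the left panel): left, members over other NK cells in KO and WT; right, KO over WT in members and in other NK cells, over the genes with at least 50 UMIs in members of both libraries. Immature NK genes are higher (0.45 in KO, 0.72 in WT) and cytotoxic effectors lower (-0.82 in KO, -1.37 in WT) in members, and the right panel shows smaller NF-kB and glycolysis medians in members (0.12, -0.33) than in other NK cells (1.01, -0.57).

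Cell cycle genes were found throughout. After thinning, at least 3 of 27 S and G2M genes were detected in 36.5% of KO members (30.0 to 43.5) and 40.6% of WT members (35.6 to 45.7), against 35.7% and 40.3% of other KO and WT cells. The other cells' shares thus lay within the members' counting intervals. Before thinning, the members' shares were 66.2% in KO and 76.5% in WT. Stmn1, a microtubule regulator of dividing cells, had 97.3 CPM in KO and 165 CPM in WT members, against 113 and 196 CPM in other KO and WT cells.

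Hemoglobin transcripts, a sign of free or red cell RNA, went in opposite directions. Erythroid markers summed to 283 CPM in KO members and 130 CPM in WT members, against 302 and 929 CPM in other KO and WT cells. Hbb-bs had 181 CPM in KO and 88.2 CPM in WT members, against 184 and 426 CPM in other KO and WT cells. Alas2 had 2 UMIs in KO and 0 in WT members, and the part of such RNA in the other results was not tested.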

How the data were processed

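The deposited tables hold UMI counts per gene and cell barcode, 1 table per library, and the authors' processing notes name Cell Ranger 2.0.2, Seurat and mm10. The counts were used as deposited, with no doublet caller, and cells were kept and chosen by the stated rule. UMIs were summed over each kind of cell in a library and scaled to CPM (per 1000000), and ratios are log2 of CPM with 1 CPM added. Genes measured had at least 50 UMIs over the members of both libraries. In comparisons of members with other cells, an expected 50 member UMIs at the level of those cells also sufficed. A list gene was counted past 1.5-fold and any gene past 2-fold. Intervals are exact Poisson, conditional binomial and Clopper-Pearson 95% intervals of counting error, too narrow where few cells hold the UMIs, and deeper libraries give narrower ones. A count of 0 was bounded at 3 UMIs per library. Python 3.11.15, numpy 2.4.6, scipy 1.17.1 and pandas 2.3.3 were used, and the ratios were checked on simulated data. Both libraries' labels gave the genotype.

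The members and the 29 gene lists were chosen with earlier results of these data known. Named genes are those of the rule, the given markers, Hif1a, the 12 highest and 12 lowest genes of the members against other NK cells and of KO against WT members (at least 100 UMIs, without ribosomal, mitochondrial, hemoglobin, antigen receptor, sex-linked and unnamed genes), and up to 4 genes of each list. Ifng, Hspa1b, H2-Aa, H2-Ab1, Nfkbia, Lyz2, Alas2, Cmklr1, Entpd1, Gm10522, Serpinb9b and the marker genes at 0 were named after their values were seen. No test was made with 1 library per genotype. The alternatives were other depths, rules, cell filters, pseudocounts, scalings and minimum counts. In the thinned alternatives the rule was applied again to the thinned counts.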

Additional observations from a re-analysis of the deposited data

Results flagged for a closer look

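For several named genes the 2 kinds of cell, or the 2 libraries, lay on opposite sides of a log2 ratio of 0. With 1 library per genotype none of these differences was tested. In KO over WT, members were lower and other NK cells higher for Atf3 (-1.79 in members, 0.29 in other NK cells), Bcl2a1d (-0.70 and 1.0), Bhlhe40 (-0.23 and 0.58), Ccl3 (-0.61 and 0.64), Cd69 (-0.57 and 0.85), Cd74 (-2.61 and 0.43), Dusp1 (-0.23 and 0.59) and Xcl1 (-0.84 and 0.65). Atf3, Bhlhe40 and Dusp1 are response genes of the kind that the rule limits. Lag3 went the other way, with 0.89 in members and -0.30 in other NK cells. So did the hemoglobin genes Hba-a1 (0.72 and -2.10), Hba-a2 (1.45 and -2.16) and Hbb-bs (1.03 and -1.21).

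In members over other NK cells, the KO library was below 0 and the WT library above 0 for Bcl2l11 (-0.30 in KO, 0.42 in WT), Cd74 (-2.66 and 0.37), Fos (-0.29 and 0.13), Fosl2 (-0.45 and 0.54) and Xcl1 (-0.85 and 0.64). Eno1 (0.18 in KO, -0.15 in WT) and Lag3 (0.83 and -0.37) had the opposite order.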

How the results depend on the processing

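No paired analysis was possible because each genotype has 1 library and the labels carry no replicate numbers. Of 996 values of named genes under the alternatives, 852 stayed within their counting interval, 133 moved further and 11, past 1.5-fold at first, turned sign. Of 961 list medians 151 moved and 2, past 1.2-fold at first, turned sign. Sign changes of smaller medians are not among the 2. An example is the immature NK list in KO over WT members, at 0.084 first and -0.058 thinned. The cause of these shifts was not tested.

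Members' shares in KO and WT were 15.3% and 12.4% without the early gene limit, 11.4% and 8.03% thinned without it, 5.90% and 8.83% with at least 2 UMIs of Cd27 or Emb, and 5.82% and 8.29% without cells with 3 or more S and G2M genes. Thinned to 2500 UMIs the WT share was 7.68%. The KO minus WT share, -3.63 percentage points, was 2.85 without the limit, 3.41 thinned without it, -0.244 thinned and -2.47 without S and G2M cells.

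S and G2M cells is short here for cells with 3 or more S and G2M genes before thinning, and does not say that they were dividing. Leaving them out removed 145 of 219 KO and 293 of 383 WT members. Such detection depends on depth, as 36.5% of KO and 40.6% of WT members reached 3 genes after thinning. Genes 2-fold higher and lower against other NK cells (13 and 28) were 5 and 12 without S and G2M cells, 4 and 15 with a pseudocount of 10 CPM, and 4 and 15 with a minimum of 200 UMIs. The lower count was 13 thinned and 43 with a minimum of 20 UMIs, and the higher count was 21 without ribosomal and mitochondrial genes. Against counterparts (9 and 9) they were 3 and 4 without S and G2M cells, 3 and 2 with a pseudocount of 10 CPM, 2 and 4 with 200 UMIs and 18 and 20 with 20 UMIs. The higher count there was 3 thinned. The lower count was 17 with 2 UMIs of Cd27 or Emb, 5 without the 3% of cells with most UMIs and 5 without cells with a Cd3d or Cd3e UMI. Against mature cells (45 and 47) they were 10 and 19 without S and G2M cells, 24 and 25 with 10 CPM, 15 and 24 with 200 UMIs, 69 higher with 20 UMIs and 27 lower without ribosomal and mitochondrial genes.

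KO over WT counts (57 and 52) were 115 higher without the limit, 23 lower thinned, 16 lower without S and G2M cells, 19 and 23 with 10 CPM, 11 and 13 with 200 UMIs and 182 and 170 with 20 UMIs. Lists with a KO over WT median past 1.2-fold, 8 in all, were 5 thinned, 5 with 10 CPM and 5 without cells with an Il7r UMI.

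Ctla4 in KO members over other NK cells was 0.21 thinned and 0.049 without the limit, and its KO over WT ratio was 0.05 without the limit and 0.072 without S and G2M cells. In KO members over other NK cells Gzme was 0.014 thinned and 0.51 without the top 3% of cells, Gzmd was 0.31 and Gzmg 0.20 without that 3%, Gzmg was 0.64 without S and G2M cells and Ifitm2 was 0.43 thinned. Gzmc in WT was 0.052 without S and G2M cells. The co-stimulation and checkpoint list in KO had a median of -0.69 without S and G2M cells and -0.31 with a minimum of 200 UMIs. Leaving out Il7r cells or Cd3 cells, and thinning without the limit, were added after seeing the data.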
